A study of Mus musculus with 12 samples.

Results

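The step from 24 h to 48 h of beta-estradiol was examined in C10, a mouse cell line that carries an inducible form of C/EBPα, a transcription factor of the myeloid lineages. The comparison rests on 4 of the 12 arrays of the series, chosen by their titles: 2 of C10 after 24 h of beta-estradiol and 2 after 48 h. Both times carry the same inducible factor and the same hormone, and the labels set them apart by the length of treatment. The labels give the vehicle arrays no time, and they name no culture or hybridisation batch, so time in culture or a batch cannot be told apart from the treatment. The remaining arrays were 2 each of C10 given ethanol as vehicle, of C10 after 3 h and after 12 h of beta-estradiol, and of HAFTL, a mouse line from fetal liver that Ha-ras transformed, also given beta-estradiol. They entered the normalisation, the filter on dim genes and the estimate of spread, and no mean of theirs enters a difference between 24 h and 48 h. The series title describes a B cell line turned into macrophages, and the step bears on what changes late in that course. The labels name neither the promoter nor the hormone-binding part of the construct, and C10 is a single line. The labels do not say whether the 2 arrays of a time came from separate cultures. The p-values therefore measure the spread between these samples alone, and it may be technical.

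C/EBPα and PU.1 are transcription factors that drive myeloid genes, and forced C/EBPα is known to divert B lineage cells towards macrophages. Macrophages take up particles and lipoproteins through scavenger, lectin and Fc receptors and degrade them in lysosomes. They also answer type I interferon, which signals through JAK kinases and STAT and IRF factors to a large set of antiviral genes. Dividing cells rely on cyclins, the cyclin-dependent kinase CDK1, the spindle checkpoint and the anaphase-promoting complex, and cells that leave the cycle lose most of these transcripts.

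Signals are deposited array intensities per probe set, quantile normalised here, with signals under 16 set to 16. Signals under 74.6, the median of all values, are called dim. Macrophage markers were present at both times. All 8 fixed macrophage markers (Adgre1, Csf1r, Cd14, Cd68, Lyz2, Mpeg1, Itgam and Fcgr1) were above that level in all 4 arrays, and their summed signal was 85040 and 84110 at 24 h and 116800 and 116700 at 48 h. Such sums rest mostly on the brightest genes. Cd68, Itgam and Fcgr1 were called higher, and the other macrophage markers were not called. B lineage markers had not gone: 6 of 7 with a probe set were above the level at both times, with sums of 23340 and 21760 at 24 h and 15050 and 16260 at 48 h. Granulocyte markers summed to 15480 and 13850 at 24 h and to 8704 and 10130 at 48 h. Of these 8, 2 were above the level in both 24 h arrays and 3 in both 48 h arrays, and only Camp was called lower. In these bulk samples, fewer cells of a type and less RNA per cell cannot be told apart. Dendritic cell, mast cell, T and NK cell, erythroid and stromal markers summed to at most 627.3 in any of the 4 arrays, and the mast cell marker Mcpt8 lay at the floor in all 4. Cebpa itself lay at the floor in all 4 arrays and tells nothing of the introduced construct.

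The 4 arrays were close in several general properties. Median deposited signals lay between 73.92 and 78.79, the share of probe sets under the floor between 22.02% and 22.75%, and the Actb 5′ to 3′ ratio between 0.792 and 0.838. The deposited values had the same 2% trimmed mean, 500, in every array. Close medians and floor shares follow in part from that equal scale and say little of how alike the samples were. Duplicates correlated at Pearson r = 0.978 at 24 h and 0.976 at 48 h, taken across genes (not independent replicates). The poly-A spike-in transcripts stood apart in the second 48 h array, with a geometric mean of 140.8, the lowest of all 12 arrays, against 290.8 in the first 48 h array and 225 and 266.8 at 24 h. Its 18S ribosomal RNA signal at the 5′ end was also the lowest of the 12, 185.6 against 1585 in its duplicate and 619.5 and 1524 at 24 h. Every result below therefore also rests on how arrays are scaled, and the values under spike-in scaling are given after the gene groups.

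Of 11696 genes tested, 1108 were higher at 48 h (9.47%) and 2095 were lower (17.9%) with limma at an adjusted p below 0.05. Among the called genes, the fitted difference was 2-fold or more in 279 upward and 450 downward. A test that required a log2 change beyond 1 called 38 genes higher and 118 lower. The median difference over all genes was -0.07 on the log2 scale. Over all 26524 probe sets tested, 1925 were higher (7.26%) and 2943 lower (11.1%). A fit to the 4 arrays alone, with their own spread, called 721 genes higher and 1091 lower. With any 1 of the 4 arrays left out, 697 to 729 genes were higher and 1281 to 1728 lower. The named genes that were called numbered 210, and 163 of them stayed called in every such setting that tested them. The scatter of the means at both times shows mitotic genes far under the diagonal and interferon-stimulated and macrophage genes above it.

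**Figure D1:**
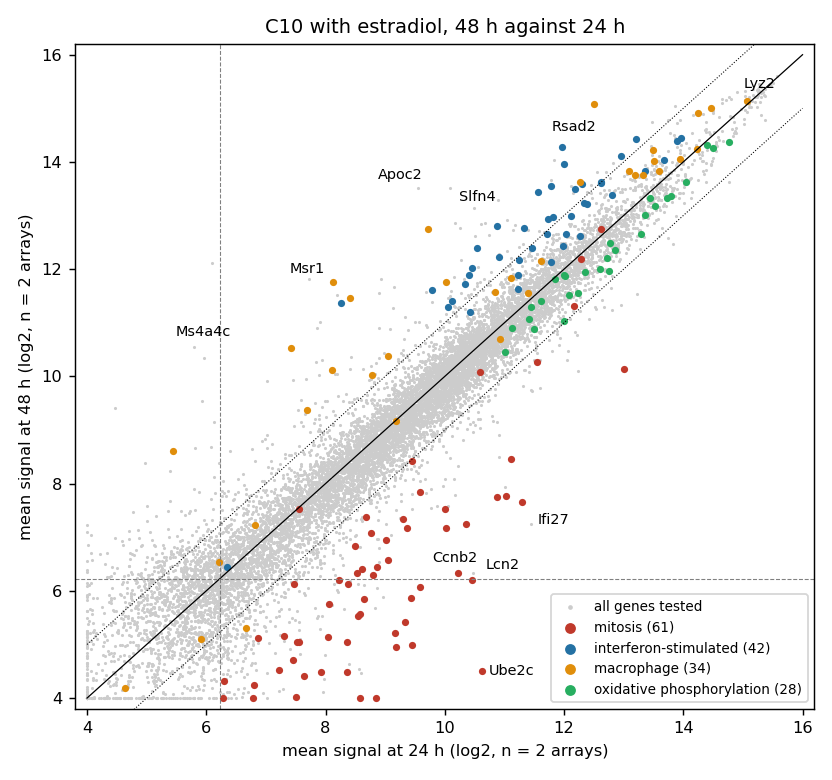
Mean log2 signal of each tested gene at 24 h (x axis) and 48 h (y axis), each the mean of 2 arrays. The solid line marks equal signals, dotted lines a 2-fold difference and dashed lines the filter level of 6.22. Coloured points are 4 gene lists with the number of members tested: mitotic genes lie below the diagonal, 58 of 61 called lower, and interferon-stimulated genes above it, 31 of 42 called higher.

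Mitotic genes fell together and furthest. Of 61 mitosis genes tested, 58 were lower at 48 h and none was higher, against a background of 17.9% lower, with a median difference of -2.56 on the log2 scale. Ube2c, the ubiquitin-conjugating enzyme of the anaphase-promoting complex, gave signals of 1454 and 1713 at 24 h and 32.29 and 16 at 48 h. Both 48 h arrays were dim, so the fall is at least 21.1-fold (adjusted p = 1.1e-05). The Ki-67 gene Mki67, the common marker of cycling cells, went from 1304 and 1503 to 69.63 and 77.99, so that the 48 h arrays straddled the dim level. Ccnb2, a B-type cyclin that activates CDK1, was measured on both sides: 1118 and 1272 at 24 h became 77.73 and 83.53 at 48 h. Its log2 signal fell by 3.89 ± 0.09 (SE, n = 2 per time, adjusted p = 9.5e-07), which was far wider than the gap between duplicates. Cdk1, the mitotic kinase itself, went from 1086 and 986.9 to 171.3 and 120.3. Cdc20, the activator of the anaphase-promoting complex, fell by 3.64 ± 0.11 on the log2 scale, from 2533 and 2519 to 207.4 and 198.8.

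Genes with various roles in mitosis were among those that fell. Among checkpoint kinases, Bub1 was lower by at least 7.80-fold and Nek2, a centrosomal kinase, by at least 6.20-fold, with both 48 h arrays dim. For cytokinesis, Cep55 was lower by at least 9.37-fold, the midzone protein Prc1 by at least 5.35-fold and the kinesin Kif23 by at least 5.11-fold. Ccna2, the cyclin of S phase and early mitosis, was lower by at least 9.27-fold. Cenpa, the centromeric histone, fell by 3.11 ± 0.10 on the log2 scale and Top2a, which untangles sister chromatids, by 3.11 ± 0.11. Stmn1, a microtubule destabiliser, fell by 3.26 ± 0.07, from 2065 and 2104 to 210 and 226.1. At the shallow end, Pttg1, the securin, went from 4714 and 4452 to 2565 and 2508, a fall of 0.85 ± 0.06. The gene family of kinesins (Kif), grouped after their values were seen, was mixed: 9 of 25 tested were lower and 3 higher, and its median, -0.13, was 0.17 when scaled to spike-ins.

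Promoters of 3 mitotic genes are shown because this set moved together. They belong to the called members with the largest falls whose 150 bases hold both motifs marked below. Sequences are the 150 bases before the RefSeq start in GRCm38.p6, from chr2:164769779-164769928 on the plus strand (Ube2c), chr7:135716380-135716529 on the minus strand (Mki67) and chr4:118437344-118437493 on the minus strand (Cdc20), written 5′ to 3′ along the gene. Capitals mark CCAAT and TTTGAA on either strand, the letters of the CCAAT box and of the cell cycle homology region.
Ube2c: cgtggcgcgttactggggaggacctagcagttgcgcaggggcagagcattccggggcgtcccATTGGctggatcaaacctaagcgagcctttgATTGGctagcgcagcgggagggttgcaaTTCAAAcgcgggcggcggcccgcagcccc
Mki67: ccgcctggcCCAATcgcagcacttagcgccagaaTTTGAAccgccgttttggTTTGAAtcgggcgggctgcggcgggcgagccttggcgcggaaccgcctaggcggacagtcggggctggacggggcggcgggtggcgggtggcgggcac
Cdc20: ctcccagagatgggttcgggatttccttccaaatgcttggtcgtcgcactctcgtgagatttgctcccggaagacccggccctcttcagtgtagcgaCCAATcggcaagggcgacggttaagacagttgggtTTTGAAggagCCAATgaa
All 3 stretches hold both motifs by the way they were chosen, which says nothing of the other members. In Cdc20 the motifs lie close to the start. Over the 250 bases before the start, CCAAT was present in 36 of 52 promoters of the mitotic genes called lower (69.2%), against 33.8% of all 32851 promoters. TTTGAA was present in 21 of 52 (40.4%), against 16% of all, but also in 10 of 29 promoters (34.5%) of the interferon-stimulated genes called higher. These 52 promoters belonged to the 49 of 58 genes with a RefSeq promoter entry here. A match is a description of letters and not of binding.

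DNA replication genes fell in part. Of 49 tested, 23 were lower and 2 higher (Slbp and Gins3), with a median of -0.35. Mcm5, a subunit of the replicative helicase, went from 979.5 and 903.4 to 199.1 and 182.6, a fall of 2.30 ± 0.08 on the log2 scale (adjusted p = 3.3e-06). Its partner Mcm7 moved only from 923.6 and 929.6 to 822.7 and 759.1, a fall of 0.23 ± 0.07. Rrm2, the small subunit of ribonucleotide reductase that supplies deoxynucleotides, went from 506 and 673.9 to 201.5 and 164.2. Prim1, the primase catalytic subunit, had 329.7 and 347.7 at 24 h and 47.68 and 111.5 at 48 h, with 1 of the 48 h arrays dim. Pclaf, a factor that binds the sliding clamp PCNA, went from 2122 and 2014 to 277.3 and 215.1, a fall of 3.08 ± 0.12. The share of E2F-type promoters, holding TTTNNCGC on either strand, was 5 of 25 (20%) for the replication genes called lower and 4.28% of all.

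Inhibitors of the cycle and D-type cyclins moved the other way in part. Of 19 tested, 9 were higher and 2 lower, with a median of 0.25, and 5 or 6 were higher with any 1 of the 4 arrays left out. Ccnd1, cyclin D1, went from 6819 and 7030 to 11500 and 11400, a rise of 0.73 ± 0.07 on the log2 scale (adjusted p = 4.3e-04). Cdkn1b, the inhibitor p27, rose from 832.4 and 827.2 to 1048 and 1063. Cdkn1a, the inhibitor p21, rose from 8580 and 9171 to 13450 and 12740 (0.56 ± 0.12). That call was lost without the first 24 h array and without the first 48 h array, with differences of 0.51 to 0.61 over the 4 arrays left out. Cdkn2c, the inhibitor p18, fell from 596.5 and 648.3 to 275 and 399.6. The p53 targets had 7 of 15 higher and none lower, and 4 without the first 24 h array. Among them Pmaip1, which encodes the death factor Noxa, rose from 1962 and 1979 to 3420 and 3479, and Ccng1, cyclin G1, from 5250 and 5722 to 8011 and 8412. In the Bcl2 family, 4 of 15 were higher and 1 lower, and 2 were higher with any 1 array left out. Bcl2l11, the death factor Bim, rose from 5192 and 5564 to 10790 and 11560 (1.05 ± 0.08).

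Interferon-stimulated genes rose as a group. Of 42 tested, 31 were higher and none lower, against a background of 9.47% higher, and the median difference was 1.08. With any 1 of the 4 arrays left out, 22 to 25 were higher. Rsad2, the antiviral enzyme viperin, gave 3849 and 4186 at 24 h and 20510 and 19020 at 48 h, 2.30 ± 0.32 higher in log2 units (SE, n = 2 per time, adjusted p = 0.0018). Ifit2, of a family that binds viral RNA, went from 4091 and 4089 to 15700 and 16220, 1.96 ± 0.07 (adjusted p = 3.7e-06), and Ifit1 from 1403 and 1567 to 5444 and 5278. Iigp1, an immunity-related GTPase, went from 304.2 and 310.6 to 2752 and 2517 (3.10 ± 0.33). Bst2, tetherin, which holds budding virions on the cell, rose from 4770 and 4585 to 11360 and 11660. The arrays of the 2 times did not overlap in these genes, but the same held for every called gene and for 4213 genes not called.

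Related families, grouped after their values were seen, moved likewise. Of the Schlafen genes (Slfn), 6 of 8 tested were higher and none lower, with the largest rise in Slfn4, from 1021 and 1161 to 12190 and 11210 (3.43 ± 0.17, adjusted p = 2.0e-05). All 4 guanylate-binding genes tested (Gbp2, Gbp3, Gbp6 and Gbp7) were higher, led by Gbp6 from 233.5 and 246.7 to 2060 and 2104. For the oligoadenylate synthetases (Oas), which sense double-stranded RNA, 3 of 7 were higher, and Oas2, Oas3 and Oasl2 had differences of 0.87, 0.77 and 1.01 that did not pass the test. Probes of such families may detect related transcripts, so single members are uncertain. A gene named for interferon went the other way: Ifi27 gave 2920 and 2656 at 24 h and 133.2 and 172.9 at 48 h. Its fall of 4.20 ± 0.13 (adjusted p = 2.2e-06) was the largest among genes measured in all 4 arrays, and the gene had stood at 2985 and 3048 in vehicle C10.

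The signalling genes upstream of this set were also raised where they were called. Of 23 tested, 9 were higher and none lower, with a median of 0.31. Irf7, a transcription factor that amplifies type I interferon, rose from 3460 and 3856 to 15430 and 18190 (2.20 ± 0.38, adjusted p = 0.0051). Stat2, which carries the interferon signal to the nucleus, rose from 1756 and 1731 to 3762 and 4149, and Irf1 from 2179 and 2154 to 3619 and 3605. Ifnb1, interferon beta itself, gave 74.56 and 78.71 at 24 h, at the dim level, and 213.9 and 252.3 at 48 h (1.60 ± 0.30, adjusted p = 0.0075). The receptor chain Ifnar2 rose from 1757 and 1807 to 2462 and 2910, whereas Ifnar1, at 1541 and 1639 and then 2254 and 1802, did not pass the test. Irf9, Irf3, Tyk2, Tbk1 and Sting1 differed by 0.22 or less in either direction and were not called. Irf7 had been at the floor in both vehicle arrays and at 89.25 and 102.3 at 12 h.

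Promoters of 3 interferon-stimulated genes are shown for the same reason, as the 150 bases before the start at chr12:26456453-26456602 on the minus strand (Rsad2), chr19:34640739-34640888 on the plus strand (Ifit1) and chr19:34583379-34583528 on the plus strand (Ifit3), from RefSeq in GRCm38.p6. Capitals mark GAAA followed after any 2 bases by GAAA, on either strand, the letters of an interferon-stimulated response element.
Rsad2: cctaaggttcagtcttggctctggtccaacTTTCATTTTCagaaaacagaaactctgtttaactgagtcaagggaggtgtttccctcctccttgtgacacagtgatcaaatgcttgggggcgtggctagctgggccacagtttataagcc
Ifit1: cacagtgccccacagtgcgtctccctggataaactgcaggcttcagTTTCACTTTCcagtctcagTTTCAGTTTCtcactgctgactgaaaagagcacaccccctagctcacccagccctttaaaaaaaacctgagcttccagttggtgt
Ifit3: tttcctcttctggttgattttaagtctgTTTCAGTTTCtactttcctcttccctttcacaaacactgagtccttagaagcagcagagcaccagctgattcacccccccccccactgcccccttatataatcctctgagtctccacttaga
Only called members with these letters in the 150 bases were eligible, so all 3 stretches hold them by choice. Ifit1 holds 2 copies and the other 2 stretches 1 each. Within 250 bases of the start, 10 of 29 promoters of the interferon-stimulated genes called higher (34.5%) held these letters, from the 24 of 31 genes with an entry, against 2.98% of all promoters. The letters were also set against all tested genes. Of 305 tested genes with such a promoter, 56 were higher (18.4%) and 54 lower (17.7%), and of 9195 without it 8.93% were higher and 18.1% lower.

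**Figure D2:**
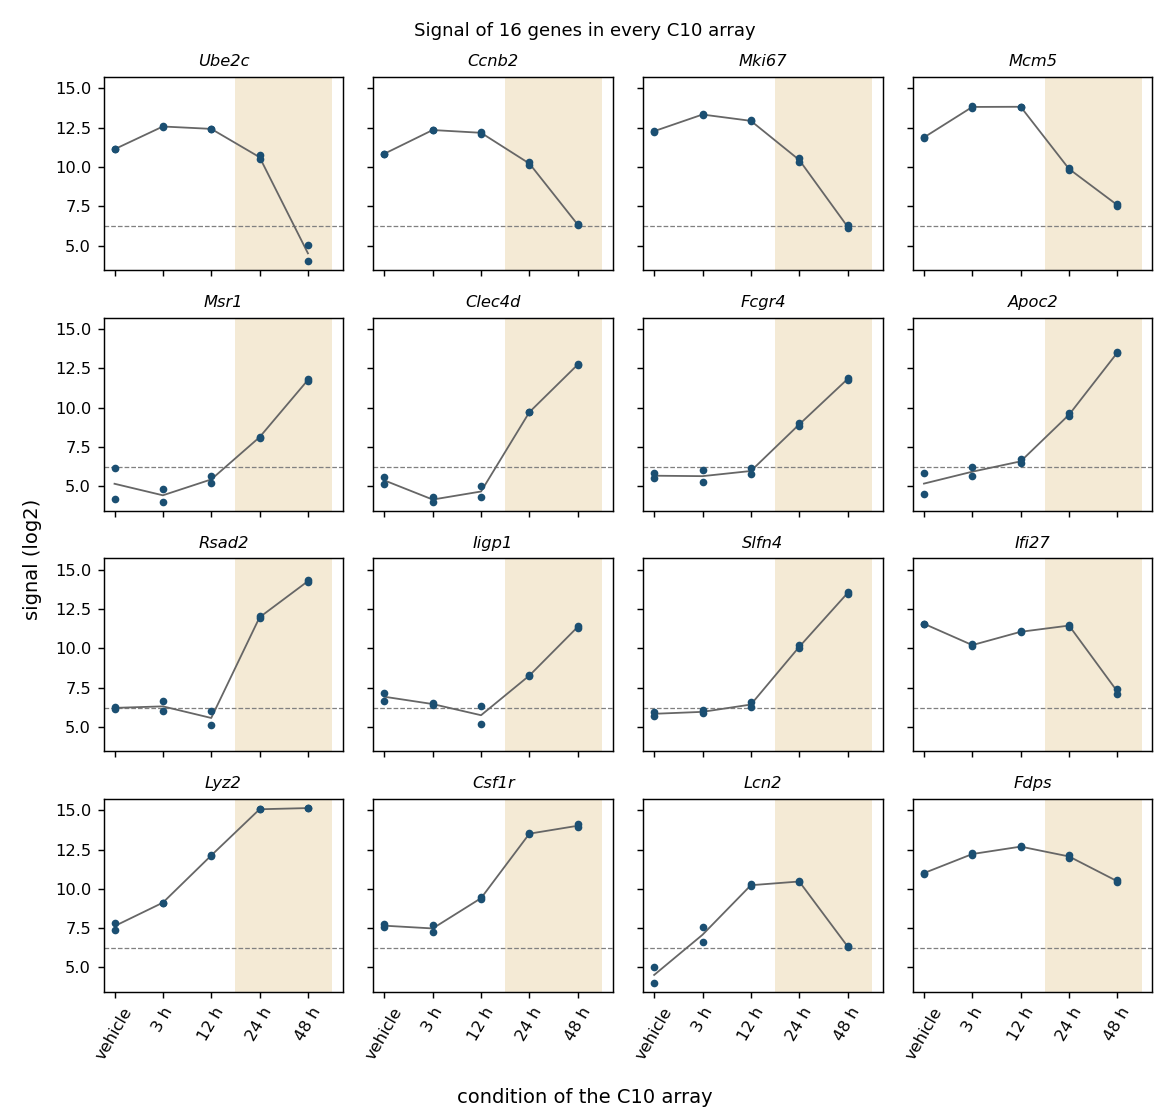
Log2 signal of 16 genes in every C10 array (points; line through the means of 2 arrays), from vehicle to 48 h of estradiol, with 24 h and 48 h shaded and the filter level of 6.22 dashed. Between 24 h and 48 h Ube2c, Ccnb2, Mki67, Mcm5, Ifi27, Lcn2 and Fdps drop, Msr1, Clec4d, Fcgr4, Apoc2, Rsad2, Iigp1 and Slfn4 climb, and Lyz2 is near its 24 h level.

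Macrophage genes that rose stood beside others that were not called. Of 34 tested, 17 were higher and none lower (background 9.47% higher), with a median of 0.61. Lyz2, lysozyme, gave 34450 and 34230 at 24 h and 36650 and 35700 at 48 h and was not called, after 170.6 and 229.9 in vehicle C10. Csf1r, the receptor for the macrophage growth factor, was at 11530 and 11870 and then at 15600 and 17630, a difference of 0.50 ± 0.16 that missed the threshold (adjusted p = 0.053). By contrast Msr1, a scavenger receptor for modified lipoproteins, went from 272.6 and 284.1 to 3313 and 3640 (3.64 ± 0.72, adjusted p = 0.0088). Siglec1, a sialic acid receptor of macrophages, went from 199.1 and 147.9 to 1649 and 1339, and Cx3cr1, the fractalkine receptor, from 341.6 and 222.2 to 1274 and 963.1. Itgam, which encodes CD11b, rose from 262 and 164.2 to 644.9 and 675.3. Axl, a receptor for dying cells, was dim in both 24 h arrays and higher by at least 5.25-fold. Adgre1, which encodes F4/80, stayed between 108.4 and 159.9 in the 4 arrays and was not called. Among 14 promoters of the macrophage genes called higher (12 of 17 genes with an entry), 3 held TTGCNNAA on either strand, the letters of a C/EBP site (21.4%), against 9.56% of all promoters. They were also in 2 of 12 promoters (16.7%) of the sterol genes called lower. Over all tested genes, 9.12% of the 844 with these letters were higher, and 9.24% of the 8656 without.

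Receptors for microbes and antibody complexes rose in many cases. Of 29 pattern recognition and Fc receptor genes, 15 were higher and 1 lower (Irak3, an inhibitor of Toll-like receptor signalling), with a median of 0.73. With any 1 of the 4 arrays left out, no member was called lower. The C-type lectins Clec4e, Clec4d and Clec4n, which encode Mincle, MCL and Dectin-2 and sense fungal and mycobacterial ligands, formed the steepest group. Clec4n went from 322.7 and 264.4 to 2718 and 3126 (3.32 ± 0.30), Clec4d from 834.2 and 845.7 to 6983 and 6706 (3.03 ± 0.24), and Clec4e from 337.6 and 341.7 to 2856 and 2799 (3.06 ± 0.39). All 3 were under 50 in both vehicle arrays and at 12 h. The related Clec7a, Dectin-1, was already at 10220 and 10330 and reached 13630 and 13920 (0.42 ± 0.09). Fcgr4, an activating receptor for immunoglobulin G, went from 450.8 and 528.5 to 3427 and 3813, and the high-affinity receptor Fcgr1 from 4904 and 4999 to 12690 and 12590. Their signalling chain Fcer1g rose from 1162 and 938.2 to 3700 and 3236. The endosomal RNA sensor Tlr7 went from 82.78 and 85.94 to 418.1 and 367.8 (2.22 ± 0.38), and Tlr3 from 467 and 482.9 to 1208 and 1386. Tlr2, at 15670 and 15760 and then 17730 and 16550, was not called.

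The Ms4a genes, a cluster of membrane proteins that includes the B cell antigen CD20, were grouped after their values were seen. Of 9 tested, 6 were higher and none lower. Among the higher, Ms4a4c, Ms4a7 and Ms4a8a were above the dim level in the 48 h arrays alone. They passed the filter only through those arrays, so they could only count as rises. Ms4a6d, with the largest fitted rise of all genes tested, gave 77.76 and 60.35 at 24 h and 4574 and 4343 at 48 h (6.02 ± 0.19, adjusted p = 2.2e-06), with 1 of the 24 h arrays dim. Ms4a6b went from 245.9 and 183 to 3617 and 3601, and Ms4a6c from 120.6 and 140.5 to 933.3 and 999.9. Ms4a4c was higher by at least 20.0-fold, from dim signals in both 24 h arrays to 1484 and 1507. Ms4a1, the CD20 gene, stayed dim in all 4 arrays. Fpr2, a receptor for formylated peptides, was likewise dim at 24 h and higher by at least 17.5-fold at 48 h. The paired receptors Pilra and Pilrb1 rose from 468.2 and 489.7 to 3164 and 2873 and from 267.6 and 199.6 to 2277 and 1629. The call for Pilra was lost without the first 24 h array, with differences of 2.59 to 2.72 over the 4 arrays left out.

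Complement genes moved up, with 5 of 8 higher and none lower, and 3 or 4 with any 1 array left out. Cfp, properdin, which stabilises the alternative pathway convertase, rose from 1914 and 1903 to 9415 and 10660 (2.39 ± 0.22). C3ar1, the receptor for the C3a fragment, rose from 3331 and 3721 to 12470 and 13610. Cfb, factor B, had 58.43 and 78.34 at 24 h and 402.4 and 421.4 at 48 h, but its call was lost with any 1 of the 4 arrays left out (2.39 to 2.82). Of 13 matrix protease genes, 4 were higher and 1 lower, and 8 were not called. Mmp12, the macrophage elastase, went from 5661 and 5889 to 34320 and 35090 (2.59 ± 0.31), and was at the floor in both vehicle arrays. Mmp13, a collagenase, rose from 11300 and 11350 to 26920 and 27960. Timp1, an inhibitor of these enzymes, had 249.7 and 131.1 at 24 h and 64.69 and 83.52 at 48 h. Its call was kept without the second 24 h array and lost without each of the other 3, with falls of 0.83 to 1.76 on the log2 scale.

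Genes of the lysosome were higher in 17 of 31 cases and lower in 2, with a median of 0.42, and in 10 cases without the first 24 h array, 11 without the first 48 h array and 12 without each of the others. Lgmn, an asparagine endopeptidase, rose from 1107 and 1114 to 2330 and 3281 (1.32 ± 0.15). Npc2, which carries cholesterol out of lysosomes, rose from 16350 and 15390 to 27360 and 28810, and the cathepsin Ctss from 11450 and 11550 to 18680 and 19560. Cathepsin L, Ctsl, was dim at 24 h and at 307.5 and 296 at 48 h, at least 4.04-fold higher. It was no longer called without the first 24 h array, and differences over the arrays left out were 2.32 to 3.37. Cathepsin D, Ctsd, had 13610 and 12830 at 24 h and 13160 and 13270 at 48 h, which overlapped. Smpd1, acid sphingomyelinase, fell from 930.8 and 844 to 538 and 610. The 10 genes of the phagosome oxidase gave 1 higher and 2 lower, shares near the 9.47% and 17.9% over all genes. Cybb, the catalytic subunit of the oxidase, rose from 23390 and 22970 to 30690 and 32700. Ncf4, a cytosolic subunit, fell from 7369 and 6672 to 5022 and 5071. The call for Ncf4 was lost without the first 24 h array and without the first 48 h array, with falls of 0.40 to 0.55 on the log2 scale, and no oxidase gene was called lower in those settings.

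Of 19 lipid handling genes tested, 5 were higher (26.3%) and 4 lower (21.1%). The lower share was near the 17.9% over all genes. Without the first 24 h, the second 24 h or the second 48 h array, 3 were higher. Among the higher were a carrier and an exporter: Cd36, a scavenger receptor and fatty acid carrier, went from 222.3 and 236.2 to 1317 and 1147 (2.42 ± 0.22), and Abca1, the cholesterol exporter, from 1136 and 1143 to 2456 and 2629. Abca1 kept its call without the first 48 h array and lost it without each of the other 3 (1.11 to 1.21). Apoc2, an apolipoprotein outside the list that activates lipoprotein lipase, went from 791 and 708.7 to 11260 and 12000 (3.96 ± 0.73, adjusted p = 0.0066). Among the lower, Dgat2, which makes triglyceride, went from 1901 and 1876 to 630.4 and 509.5. The lipoprotein receptor Scarb1 fell from 4107 and 4018 to 2184 and 2272, and Olr1, a receptor for oxidised lipoprotein, from 224.1 and 254.9 to 92.29 and 98.88.

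Sterol synthesis fell. Of 19 genes tested, 11 were lower and none higher, against 17.9% lower over all genes, with a median of -0.47. Fdps, which makes farnesyl diphosphate, went from 4585 and 3993 to 1379 and 1485, a fall of 1.58 ± 0.09 (adjusted p = 3.1e-05). Tm7sf2, a sterol reductase, fell from 593.5 and 475.2 to 236.6 and 244.8, and Cyp51, the lanosterol demethylase, from 2268 and 2523 to 1520 and 1268. Hmgcs1, an early synthase of the pathway, fell from 6177 and 6024 to 4521 and 4027. Its promoter is shown because it holds both motifs searched for this list, TCACNCCAC, the letters of a sterol response element, and CCAAT (capitals, either strand), over the 150 bases before the start at chr13:119690201-119690350 on the plus strand in GRCm38.p6.
Hmgcs1: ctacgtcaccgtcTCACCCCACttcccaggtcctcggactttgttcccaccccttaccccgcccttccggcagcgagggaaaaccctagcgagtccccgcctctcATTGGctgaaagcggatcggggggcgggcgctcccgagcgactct
CCAAT was found in 10 of 12 promoters of the sterol genes called lower (83.3%, from 10 of 11 genes with an entry) and TCACNCCAC in 1 of 12 (8.33%), against 33.8% and 1.05% of all promoters.

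Energy metabolism fell in its mitochondrial part. Of 28 oxidative phosphorylation genes tested, 20 were lower and none higher, with a median of -0.39. The falls were small and close together: Ndufa4 went from 6949 and 6905 to 3878 and 4114 (0.79 ± 0.07 lower on the log2 scale), and Atp5a1, a subunit of ATP synthase, from 10240 and 9890 to 6284 and 6650. Atp5g1, of the ring that turns in that enzyme, was the steepest, from 4258 and 3981 to 2138 and 2029. The median level of this list was nearly flat from vehicle to 24 h, between 12.6 and 12.9 on the log2 scale, and stood at 11.96 and 12.01 in the 48 h arrays. Among genes named Ndufa, Ndufb, Ndufs and Ndufv, most of them of complex I and grouped after their values were seen, 20 of 32 were lower and none higher. Of 16 glycolysis genes, 4 were lower (2 without the second 24 h array) and 1 higher, with a median of -0.15 (0.10 with spike-in scaling). Hk3, a hexokinase of myeloid cells, was that exception, from 485.9 and 471.2 to 1904 and 1927 (2.00 ± 0.32).

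**Figure D3:**
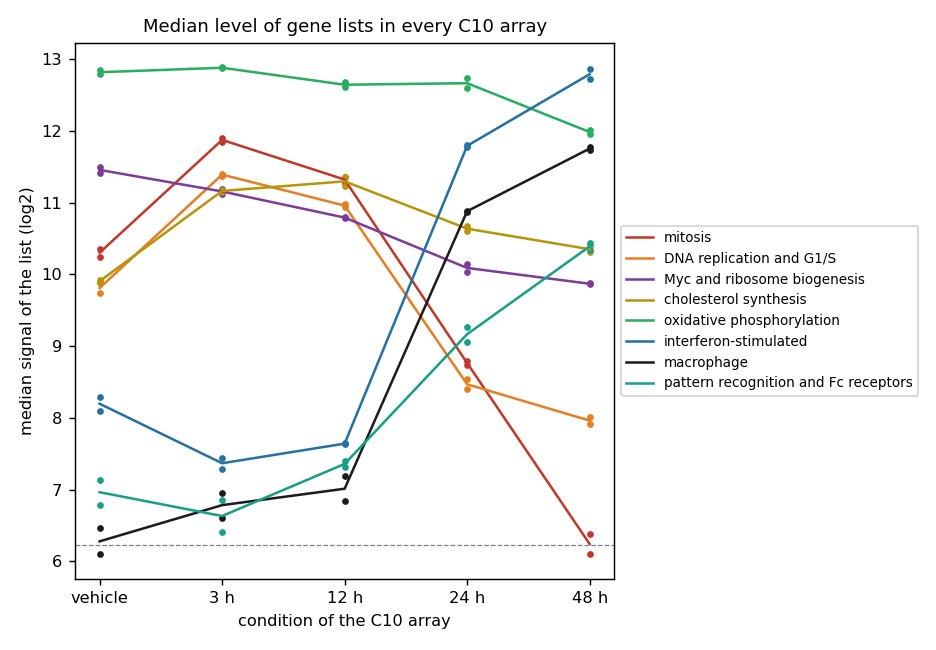
Median log2 signal of 8 gene lists in each C10 array (points) with lines through the mean of 2 arrays, from vehicle to 48 h of estradiol; the filter level of 6.22 is dashed. From 24 h to 48 h the mitosis list drops from 8.73 and 8.80 to 6.10 and 6.38, while the interferon-stimulated list climbs from 11.78 and 11.80 to 12.72 and 12.86.

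Genes that build ribosomes fell too, 17 of 33 with none higher and a median of -0.47. Fbl, fibrillarin, which methylates ribosomal RNA, went from 4120 and 3608 to 2268 and 1911, and Npm1, nucleophosmin, from 12470 and 11830 to 7919 and 7747. Rrp12, a ribosome export factor, was lower by at least 2.25-fold with both 48 h arrays dim. Myc, which drives these genes in growing cells, was at 2027 and 1935 at 24 h and at 2374 and 2218 at 48 h and was not called. For cytosolic ribosomal proteins 8 of 20 were lower and none higher, 5 or 6 with any 1 array left out, with a median of -0.12 (0.07 with spike-in scaling). Genes named Psm, most of them of the proteasome, were grouped after their values were seen. Of 38, 15 were lower and 1 higher, with a median of -0.29 (-0.03 with spike-in scaling). The steepest fall was in Psmc3ip, which is not a proteasome subunit and was dim in all 4 arrays. The gene called higher was Psmb9, an interferon-induced immunoproteasome subunit, from 6682 and 6464 to 7828 and 8312.

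The unfolded protein response moved both ways, with 6 of 22 higher and 9 lower. Chaperones and folding enzymes of the endoplasmic reticulum were among the lower: Creld2 went from 2710 and 2740 to 1145 and 1195 (1.22 ± 0.08 lower on the log2 scale) and Sdf2l1 from 5885 and 6115 to 3196 and 3313. Stress transcription factors were among the higher: Ddit3, which encodes CHOP, rose from 1266 and 1338 to 2757 and 2873 (1.11 ± 0.09), and Atf3 from 1354 and 1629 to 3078 and 3857. This list had a median of -0.14, which became 0.14 with spike-in scaling. Of 14 Nrf2 antioxidant genes, 6 were lower and none higher. Gclm and Gclc, which make glutathione, fell from 488.9 and 541 to 269.1 and 227.2 and from 3048 and 3224 to 2045 and 1679.

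Antigen presentation rose in parts. For class I, 6 of 12 genes were higher and 1 lower, the latter in no setting with an array left out. H2-K1, a class I heavy chain, rose from 19980 and 19760 to 31830 and 30200 (0.64 ± 0.07), and the peptide transporter Tap1 from 2273 and 2508 to 3672 and 3970. For class II, 3 of 8 were higher: Cd74, the invariant chain, from 13710 and 13860 to 28050 and 28320 (1.03 ± 0.08, adjusted p = 1.3e-04), H2-Eb1 from 193.9 and 240.6 to 382 and 408.2, and H2-Ob from 1332 and 1563 to 2866 and 3474. H2-Ab1 and H2-DMa overlapped between the times and were not called, and Ciita, the class II coactivator, was dim in all 4 arrays.

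Secreted signals were mixed. Of 24 cytokine and chemokine genes tested, 10 were higher and 2 lower, with a median of 0.63, but 6 were higher when the first or the second 24 h array was left out, and 3 when the first or the second 48 h array was. Ccl6, a chemokine of myeloid cells, rose from 6291 and 5730 to 14370 and 14500 (1.27 ± 0.12), and Ccl4 from 238.1 and 234.2 to 638.3 and 609. Ccl12, a ligand of CCR2, was dim at 24 h and higher by at least 3.72-fold, and Cxcl3, a neutrophil attractant outside the list, by at least 9.09-fold. Ccl12 and Cxcl2, both among the 10 higher, passed the filter only through the 48 h arrays, as did Cxcl3. These genes could only count as rises. Tgfb1 fell from 5647 and 5502 to 3715 and 4133. Il1b, at 17200 and 15670 and then 16450 and 15290, and Tnf, at 981.3 and 1231 and then 748.1 and 766.6, were not called. Arg1 and Nos2, enzymes used as markers of macrophage activation, lay at the floor in all 4 arrays. In the NF-kB list 2 of 16 were higher (12.5%, near the 9.47% over all genes) and none lower. They were Birc3, from 3693 and 3952 to 6187 and 6775, and Nfkbiz, from 1574 and 1682 to 2549 and 2866.

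Among transcription factors the myeloid master regulators were not called. Spi1, which encodes PU.1, had 4638 and 4599 at 24 h and 5274 and 5580 at 48 h, and Cebpb 9415 and 10160 and then 12070 and 12400. Cebpd was at 5872 and 5781 and then 8303 and 8272, with arrays that did not overlap (0.51 ± 0.17, adjusted p = 0.064). Of 22 factors in the list, 4 were higher (18.2%) and 2 lower (9.09%), against 9.47% and 17.9% over all genes. Irf8, a factor of monocytes and B cells, rose from 7377 and 7444 to 10960 and 11760, after 14860 and 15170 in vehicle C10 and 1853 and 2164 at 3 h. Mitf, which drives lysosomal genes, rose from 250.4 and 224.1 to 616.5 and 566.3 (1.32 ± 0.22), and Bhlhe40 fell from 880.7 and 761.4 to 240.4 and 213.3 (1.85 ± 0.13 lower). Of immediate early genes, 11 of 25 were higher and 4 lower, and 7 were higher with any 1 array left out. The lower share, 16%, was near the 17.9% over all genes. Jun rose from 4503 and 4581 to 9390 and 12900 (1.28 ± 0.17), and Ier5 from 2449 and 2412 to 5568 and 5341. Nr4a1, an orphan nuclear receptor, fell from 1197 and 1204 to 298.6 and 350.2 (1.89 ± 0.10 lower), and Egr3 was lower by at least 6.69-fold with both 48 h arrays dim.

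Remaining B lineage transcripts fell further in part. Of 38 tested, 14 were lower and 5 higher, with a median of -0.32. The surrogate light chain gene Igll1 went from 5674 and 5281 to 2209 and 2108 (1.34 ± 0.07 lower), Vpreb3 from 1486 and 1205 to 594.2 and 600.7, and the surface antigen Cd24a from 2637 and 2468 to 953.8 and 858.1. Cd79a, a chain of the B cell receptor complex, fell from 4379 and 4446 to 2965 and 3403, and Cd79b was not called at 7047 and 6836 and then 5626 and 6105. The B lineage factors Ebf1, at 1188 and 1475 and then 1437 and 1534, and Pax5, at 174.3 and 179.4 and then 148.8 and 270, overlapped between the times and were not called. A further probe set of Pax5 was called lower. Il7r, the interleukin 7 receptor, rose from 192.4 and 203.4 to 549.2 and 531.4 (1.45 ± 0.11), far under the 12930 and 11840 of vehicle C10.

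Granulocyte genes gave 1 higher (10%) and 2 lower (20%) of 10 tested, shares near the 9.47% and 17.9% over all genes. Lcn2, the siderophore-binding protein lipocalin 2, went from 1379 and 1459 to 83.48 and 78.68, a fall of 4.13 ± 0.38 (adjusted p = 3.5e-04), after 16 and 33.03 in vehicle C10 and 1155 and 1254 at 12 h. Camp, a cathelicidin of granules, fell from 8451 and 7538 to 2624 and 2561 (1.62 ± 0.10 lower), and Mmp8, a collagenase of neutrophils, rose from 6873 and 7152 to 12880 and 13690. S100a8, at 6677 and 6108 and then 5865 and 7268, was not called. The iron list that also holds Lcn2 had 3 of 11 lower (27.3%) and 1 higher (9.09%). Without the second 48 h array 2 were lower, and 1 without each of the others. The rise was lost without the second array of either time. Of lists for other cell types, dendritic cell genes gave 2 of 8 higher (25%), mast cell 1 of 3 (33.3%), T and NK cell 1 of 4 (25%) and erythroid 1 of 3 (33.3%). None of these lists was lower in any gene, and stroma gave 1 of 8 lower (12.5%). Over all genes 9.47% were higher and 17.9% lower, and in lists this small 1 call moves the share widely. The T and NK cell gene called was Klrk1, which encodes NKG2D, dim at 24 h and at 166.2 and 193.5 at 48 h, and it was not tested when a 48 h array was left out. The erythroid gene called, Gata1, was dim in all 4 arrays and lost its call with any 1 of them left out. In the dendritic cell list, 1 gene was higher without the first 24 h or the first 48 h array, and in stroma 2 were lower without the first 24 h array. The mast cell count was 2 without the first 24 h array. The part of other cell types in the results was not tested.

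Of 33 adhesion and actin genes, 5 were higher (15.2%) and 6 lower (18.2%), shares near those of 9.47% and 17.9% over all genes. Actg1, gamma actin, went from 30130 and 25900 to 12430 and 12970 (1.14 ± 0.08 lower on the log2 scale), and the adhesion molecule Icam1 from 1641 and 1697 up to 2730 and 2855. S100a4, a calcium-binding protein of motile cells outside the list, rose from 1223 and 1090 to 8728 and 6312 (2.68 ± 0.18). Of 10 genes of DNA methylation 2 were lower, near the share over all genes, and 2 higher, of which none was called without the first 24 h array and 1 without each of the others. Of the lower, Dnmt3b, a de novo methyltransferase, fell from 255.6 and 261.5 to 120.9 and 127.2, and Uhrf1, which recruits the maintenance methyltransferase, from 303.2 and 384.1 to 172.1 and 113.4. Of 15 histone deacetylases 4 were lower and none higher, with a median of -0.23 (0.07 with spike-in scaling), and 2 were lower without the first 24 h array. Housekeeping genes had 1 of 16 higher and 2 lower (1 without the second 48 h array, none without each of the others), with a median of -0.09 (0.19 with that scaling).

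**Figure D4:**
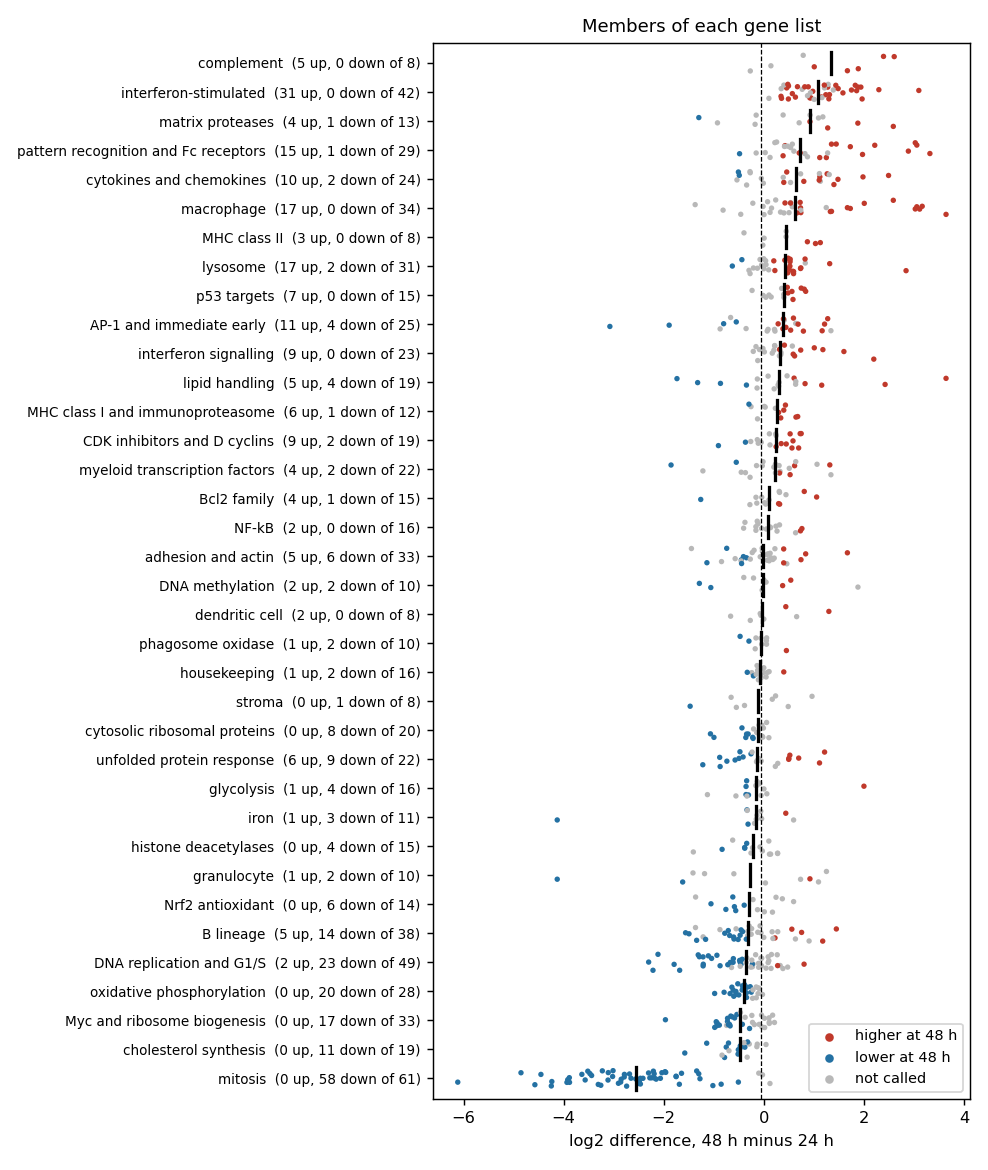
Log2 difference, 48 h minus 24 h, of each tested member (points) of the lists with 8 or more tested members, sorted by the list median (black bar); red points were called higher, blue points lower and grey points were not called. The dashed line is the median of all genes, -0.07; the mitosis list lies at -2.56 and complement at 1.34.

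Scaling to the poly-A spike-ins instead moved the median of all genes from -0.07 to 0.22 and left 190 genes higher and 126 lower, so that 60.1% of calls were higher in place of 34.6%. That scaling moves all genes of an array by 1 constant, so distances from the median of all genes stay close by construction and say nothing of stability. The list medians themselves were then -2.23 for mitosis, 1.38 for interferon-stimulated genes, 0.84 for macrophage genes, -0.22 for sterol synthesis and -0.13 for oxidative phosphorylation. Of the members, 46 mitosis, 13 interferon-stimulated, 10 macrophage, 9 pattern recognition and 4 replication genes were still called in the direction given above. So were 4 complement, 4 cytokine, 2 lipid handling, 2 matrix protease and 2 interferon signalling genes among the higher, and 1 lysosome gene of 17. None of the sterol, oxidative phosphorylation, ribosome biogenesis or Nrf2 genes was still called lower. In the lists of CDK inhibitors and D cyclins, p53 targets, MHC class I, MHC class II and the unfolded protein response, no member was called either way. The 14 falls of the B lineage list and the 11 rises of the immediate early list were lost as well. With the second 48 h array also left out, a setting added after its low spike-ins were seen, the median of all genes was -0.32, with 66 genes higher and 367 lower.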

How the data were processed

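RNA was extracted with Trizol, biotin-labelled and hybridised to mouse one-colour arrays, per the labels' protocols. The authors deposited linear signal intensities for 45101 probe sets, and the 2% trimmed mean is equal in every array. Neither the summarising method nor detection calls are given in the sources used here. The number of arrays limits the precision. Titles gave each array's group and replicate number. Here the deposited intensities were taken to log2, quantile normalised over 12 arrays, stripped of 64 control probe sets and floored at 16. Probe sets were named from the platform annotation table, checked against RefSeq: 34945 had a single gene (34741 found), 932 several and 9160 none, and the last groups were not named. The probe set of highest mean stood for each of 18193 genes, and 11696 with log2 signals above 6.22 in at least 2 arrays were tested. Probe sets of 23 genes were called both ways, of 5655 genes with 2 or more tested.

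Tests used limma (3.58.1) in R (4.3.3), 1 mean per group over 12 arrays (6 residual degrees of freedom, prior 1.53), two-sided, with Benjamini-Hochberg adjustment over all genes tested at 0.05. The code was tested on simulated data. Errors are standard errors of this fit. A group dim in both arrays gives a lower bound, the brighter group's mean against the filter level. A gene dim at 1 time passed the filter only through other arrays. For Ms4a4c, Fpr2, Axl, Ctsl, Ccl12, Cxcl2, Cxcl3 and Klrk1 these were the 48 h arrays alone, so these genes could only count as higher. They were not tested with a 48 h array left out. Named genes were the 15 largest rises and falls measured in all 4 arrays, the 10 largest bounds each way, up to 6 called members of each of 39 gene lists, and a fixed set. Further list members, the gene families and the spike-in setting without the second 48 h array were chosen after their values were seen. The members and lists were chosen with earlier results of these data known. Promoters, from the RefSeq table of GRCm38.p6, matched 9500 tested genes. Alternatives covered normalisation, filter, floor, probe set, arrays in the fit, moderation, threshold and leaving out each array.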

Additional observations from a re-analysis of the deposited data

Results flagged for a closer look

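Probe sets with no gene in the annotation table, or with several, stood outside the comparison of named genes. Of 4602 such probe sets tested, 379 were higher at 48 h (8.24%) and 253 lower (5.5%). Over all probe sets tested the shares were 7.26% higher and 11.1% lower. They are listed for a signal outside the comparison of named genes. The 6 with the largest differences among those measured in all 4 arrays were all rises. Probe set 1417185_at rose by 5.47 ± 0.28 in log2 units (SE, 2 arrays per time, limma adjusted p = 3.9e-05), from 103.3 and 120.1 at 24 h to 4818 and 5070 at 48 h, after 249.7 and 258.2 in vehicle C10. Probe set 1421571_a_at rose by 4.23, from 76.32 and 184.4 to 2109 and 2356. The rise of 1449254_at was 3.15, from 776 and 728 to 7584 and 5844, and that of 1450322_s_at was 3.02, from 168.5 and 194.2 to 1403 and 1524. Probe set 1449009_at rose by 2.65 to 15670 and 15430, and 1460003_at by 2.57 to 3065 and 3480. In all 6 the 48 h arrays lay above both 24 h arrays and both vehicle arrays.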

How the results depend on the processing

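Among all alternatives, the counts of genes stayed within 1.5 times the main 1108 higher and 2095 lower for deposited values (1134 and 2065), median centring (862 and 2058), no filter or another filter, averaged probe sets per gene (869 and 1517), the 8 arrays of C10 with estradiol (1001 and 1816), an intensity trend, a robust prior, floors of 1 and 64 and a pseudocount of 16. The replicate block gave 1024 and 1963; same-numbered arrays at 24 h and 48 h had deviations correlated at 0.0311, so the numbers do not pair them. Spike-in scaling gave 190 higher and 126 lower genes and 267 and 158 probe sets. The 4 arrays alone gave 721 and 1091 genes and 720 and 750 probe sets. Requiring a log2 change beyond 1 left 38 and 118 genes and 62 and 136 probe sets. With 1 array left out, the lone array is assumed to vary like the other groups: genes higher ranged from 697 to 729 and lower from 1281 to 1728, probe sets higher from 830 to 1045 and lower from 1366 to 2142. Spike-in scaling without the second 48 h array gave 66 and 367 genes and 70 and 426 probe sets. The median over all genes moved from -0.07 to -0.10 with centring, 0.22 with spike-ins, -0.0083 with no filter, -0.038 with a floor of 64 and -0.32 with spike-ins without the second 48 h array. Of the named genes called, those whose difference changed sign were Hprt under spike-in scaling (0.036), Rps6 with the mean of probe sets (0.19), and Irf5 (-0.014) and Ccnd2 (-0.011) with spike-ins without the second 48 h array. The cause was not tested. Signals under 16 carry no order, so fold changes of dim genes are understated.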
